A study of Mus musculus with 12 samples.

Results

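The genes described here are 43 genes that mark astrocytes or are known to be induced when astrocytes become reactive, followed through the striatum of mice that model Huntington's disease (HD) with and without the autophagy receptor p62. They were chosen by name, from knowledge of astrocytes, and with earlier results of these data known. Probe sets with a single gene symbol in the platform table were used, and all 43 genes were found among the 19248 measured. The striatum was taken at 8 weeks from 12 mice in 4 groups of 3. HD_p62KO mice carried the HD transgene on a p62 knockout background (HD;p62-/- in the titles), HD_p62WT mice carried the transgene with normal p62 (HD;p62+/+), NT_p62KO mice were non-transgenic p62 knockouts (NT;p62-/-), and NT_p62WT mice were non-transgenic with normal p62 (NT;p62+/+). The labels do not name the HD line, its promoter or its repeat length, nor the sex of the mice, nor how p62 was removed, and the cross was made to learn what depleting p62 does to striatal transcripts in HD mice. Each mouse gave 1 log2 value per probe set on a whole-transcript array.

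Astrocytes tile the striatum and wrap its synapses. They take up glutamate and GABA released by neurons, turn glutamate into glutamine for return to neurons, buffer extracellular potassium and water, store glycogen and activate thyroid hormone for neighbouring cells. In injury and in many neurodegenerative diseases they can become reactive, a state marked by intermediate filament proteins such as GFAP and vimentin and by secreted and cytokine-related proteins. Low levels of the glutamate transporter Slc1a2 and of the potassium channel Kcnj10 have been described in astrocytes of HD model mice.

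Sqstm1, which encodes p62, checked the knockout labels. Its log2 values were 8.92, 9.13 and 9.02 in HD_p62KO mice and 11.75, 11.26 and 11.51 in HD_p62WT mice, against 8.44, 8.52 and 8.49 in NT_p62KO mice and 11.19, 11.35 and 11.24 in NT_p62WT mice. All 6 knockout mice lay below all 6 mice with normal p62, by -2.48 ± 0.11 in HD mice and -2.78 ± 0.11 in non-transgenic mice (SE; limma, adjusted p = 4.03e-07 and 1.05e-07). The array medians lay between 7.70 and 7.73, and arrays of a group correlated at 0.987 to 0.995. The spread of each array's values over all genes (SD) was 1.64 to 1.73 in the 6 HD mice and 1.58 to 1.67 in the 6 non-transgenic mice, so it partly moved with the HD groups. Markers of choroid plexus, tissue that lies beside the striatum, differed between arrays. Their mean deviation was -0.68, 1.14 and 0.21 in HD_p62KO mice and 0.43, -0.06 and -0.70 in HD_p62WT mice. In non-transgenic mice it followed p62 genotype, at 0.29, 0.34 and 0.54 in NT_p62KO mice and -0.63, -0.32 and -0.57 in NT_p62WT mice. Calls on members that were lost when either measure entered the model as a covariate are given with that value. As tissue check, the lowest of the striatal projection neuron markers was Pdyn at 8.33 and the highest Penk at 12.84, as means over all mice. The striatum was not sorted, so each value is a sum over all its cells, and fewer astrocytes and less RNA per astrocyte cannot be told apart. No detection calls were used, and the authors' normalization would hide any shift common to most genes. Precision is limited by the number of arrays, 3 per group, and each p-value reflects only the spread among these mice, which the titles call biological replicates.

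Start-site sequences of 3 members are shown because these genes carry the main contrasts below. Dio2 fell furthest, Vim rose furthest, and Gfap, the classic marker of reactive astrocytes, did not pass the test. Each runs from 250 bases before to 50 bases after the annotated start in RefSeq (GRCm38.p6) and is written 5′ to 3′ on the gene's own strand. Capitals mark a match to TGACGTCA, the cAMP response element, or to TTCNNNGAA, the STAT consensus. Both strands were searched.
Dio2: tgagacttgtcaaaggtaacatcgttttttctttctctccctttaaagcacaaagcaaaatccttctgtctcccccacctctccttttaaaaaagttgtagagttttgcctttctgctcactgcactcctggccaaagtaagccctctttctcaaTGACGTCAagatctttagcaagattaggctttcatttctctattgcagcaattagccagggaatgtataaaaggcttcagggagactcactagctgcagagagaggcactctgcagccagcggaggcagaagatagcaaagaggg
Vim: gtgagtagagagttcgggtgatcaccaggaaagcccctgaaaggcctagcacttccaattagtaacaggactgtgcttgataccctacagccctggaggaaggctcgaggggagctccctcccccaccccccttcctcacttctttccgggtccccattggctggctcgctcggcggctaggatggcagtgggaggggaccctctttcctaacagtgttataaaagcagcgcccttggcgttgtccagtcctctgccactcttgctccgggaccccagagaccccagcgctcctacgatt
Gfap: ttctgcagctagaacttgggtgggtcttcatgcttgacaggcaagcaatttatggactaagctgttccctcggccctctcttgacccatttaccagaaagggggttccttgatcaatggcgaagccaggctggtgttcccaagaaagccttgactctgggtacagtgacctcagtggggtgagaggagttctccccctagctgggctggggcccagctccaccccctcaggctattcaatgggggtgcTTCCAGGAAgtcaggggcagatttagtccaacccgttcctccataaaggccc
The Dio2 window is chr12:90738989-90739288 on the minus strand, and its cAMP response element match lies 95 to 88 bases before the annotated start. The Vim window is chr2:13574061-13574360 on the plus strand and holds neither motif. The Gfap window is chr11:102897151-102897450 on the minus strand, with a STAT match across the annotated start. TGACGTCA occurred in 1 of the 44 windows of 37 members, that of Dio2, and in 1.79% of all 32851 windows. TTCNNNGAA occurred in 6 of the 44 windows, in Acsbg1, Aldoc, Gfap, Ntsr2, Slc1a3 and Steap4, and in 8.30% of all windows. A match describes letters only, and no binding was measured.

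The first question was which astrocyte genes differed with the HD transgene. Averaged over both p62 genotypes, 15 of the 43 genes passed the test, 3 higher and 12 lower in HD striatum (limma, Benjamini-Hochberg adjusted p under 0.05 over all genes). The background was high, since 35.0% of all 19248 genes passed in this comparison, 19.9% higher and 15.0% lower. The share of members called was therefore close to that of all genes, and the split leaned to lower values. The median log2 difference was -0.11 over the members and -0.02 over all genes. Without p62, 7 members passed (2 higher, 5 lower), where 21.7% of all genes did (13.3% higher, 8.34% lower). With normal p62, 5 members passed (1 higher, 4 lower), where 7.10% of all genes did (3.85% higher, 3.24% lower). Among all 6 HD against all 6 non-transgenic mice, the values did not overlap for 5 lower members (Slc1a2, Glul, Atp1b2, Ppp1r3c and Dio2), a pattern shown by 5.69% of all genes, and for 1 higher member (Vim), a pattern shown by 10.5% of all genes.

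**Figure D1:**
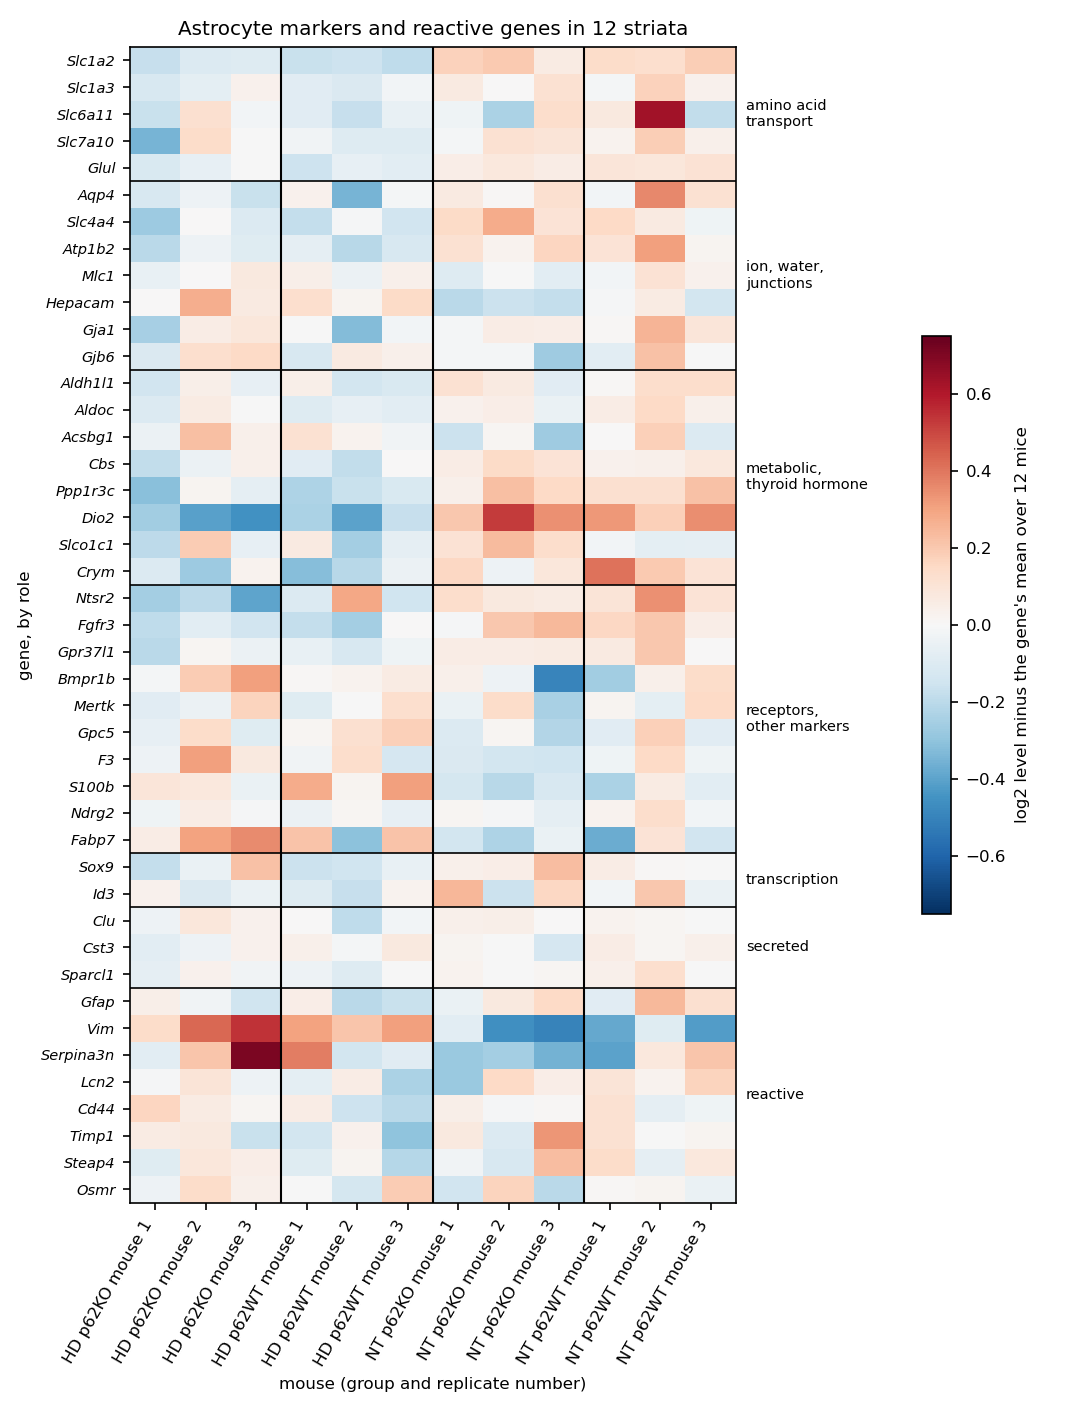
Log2 level of each of the 43 genes (rows, by role) in each of the 12 mice (columns, 3 per group), as the difference from that gene's mean over all mice, red above and blue below it. Dio2 and Slc1a2 were below their means and Vim above its mean in all 6 HD mice, and Gfap showed no such split.

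Of the 20 transport and metabolic members, 9 fell and 1 rose in the mean HD effect, where 15.0% of all genes fell and 19.9% rose. Their median log2 difference was -0.15. The clearest transporter was Slc1a2 (GLT-1; chr2:102658239-102790784), which clears most of the glutamate released in the forebrain. Its log2 values were 11.45, 11.52 and 11.53 in HD_p62KO mice and 11.45, 11.47 and 11.43 in HD_p62WT mice, against 11.79, 11.82 and 11.68 in NT_p62KO mice and 11.76, 11.75 and 11.81 in NT_p62WT mice. Every HD mouse lay below every non-transgenic mouse, and the HD groups lay within a narrow range of one another. Slc1a2 fell by 0.29 on average (SE 0.043, 95% interval -0.39 to -0.20; limma, adjusted p = 0.000689), a 1.23-fold difference. It fell by 0.27 without p62 (SE 0.061, adjusted p = 0.0133) and by 0.32 with normal p62 (SE 0.061, adjusted p = 0.0122). The call with p62 rested on single arrays, with an adjusted p of 0.0551 without HD_p62WT mouse 3 and 0.0537 without NT_p62WT mouse 3.

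Glul encodes glutamine synthetase, which converts glutamate to glutamine. Its values were 11.92, 11.97 and 12.03 in HD_p62KO mice and 11.88, 11.97 and 11.95 in HD_p62WT mice, against 12.08, 12.12 and 12.09 in NT_p62KO mice and 12.12, 12.12 and 12.14 in NT_p62WT mice. All HD mice lay below all non-transgenic mice, though the gap was small. Glul fell by 0.16 on average (SE 0.042, adjusted p = 0.0137), and neither p62 genotype alone passed (adjusted p = 0.152 without p62 and 0.0667 with it). A second probe set with the Glul symbol differed by -0.06, and the average of both did not pass (adjusted p = 0.0596). Slc1a3 (GLAST), the other glutamate transporter of astrocytes, had values of 10.56, 10.61 and 10.71 in HD_p62KO mice and 10.59, 10.57 and 10.66 in HD_p62WT mice, against 10.75, 10.68 and 10.80 in NT_p62KO mice and 10.66, 10.85 and 10.71 in NT_p62WT mice. Its groups overlapped, and the mean difference of -0.13 did not pass (SE 0.051, 95% interval -0.24 to -0.02, adjusted p = 0.0720). Slc6a11 (GAT-3), which takes up GABA, differed by -0.13 ± 0.12 (SE), with NT_p62WT mouse 2 far above the rest at 11.12. Slc7a10, a transporter of small neutral amino acids such as serine, differed by -0.15 ± 0.075 (SE). Neither passed.

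Among the 7 ion, water and junction genes, 3 fell and 1 rose, where 15.0% of all genes fell and 19.9% rose. Atp1b2, the β2 subunit of the sodium pump, had values of 10.24, 10.40 and 10.35 in HD_p62KO mice and 10.37, 10.23 and 10.32 in HD_p62WT mice, against 10.56, 10.47 and 10.60 in NT_p62KO mice and 10.54, 10.75 and 10.46 in NT_p62WT mice. The HD and non-transgenic mice did not overlap, and Atp1b2 fell by 0.25 (SE 0.060, adjusted p = 0.00887). Slc4a4 is a sodium bicarbonate cotransporter that handles pH. Its values were 10.18, 10.46 and 10.35 in HD_p62KO mice and 10.28, 10.45 and 10.31 in HD_p62WT mice, against 10.60, 10.73 and 10.56 in NT_p62KO mice and 10.61, 10.52 and 10.43 in NT_p62WT mice. The knockout groups were separate while the groups with normal p62 overlapped. Slc4a4 fell by 0.24 on average (SE 0.062, adjusted p = 0.0129) and by 0.30 without p62 (SE 0.087, adjusted p = 0.0317), against a difference of -0.17 with p62 (adjusted p = 0.241). The call without p62 was lost on leaving out HD_p62KO mouse 1 or 3 or any NT_p62KO mouse (adjusted p up to 0.0813), and with the array spread as a covariate (-0.36, adjusted p = 0.0825). Aqp4 forms the water channel of astrocyte endfeet. It had values of 9.33, 9.42 and 9.28 in HD_p62KO mice and 9.49, 9.10 and 9.44 in HD_p62WT mice, against 9.52, 9.46 and 9.57 in NT_p62KO mice and 9.43, 9.81 and 9.57 in NT_p62WT mice. HD_p62WT mouse 2 was the lowest and NT_p62WT mouse 2 the highest, and the groups overlapped. Aqp4 fell by 0.22 (SE 0.079), just past the threshold (adjusted p = 0.0495), and this call was lost on leaving out any mouse but HD_p62WT mouse 1 and NT_p62WT mouse 1 (adjusted p up to 0.105). It was also lost with the array spread (-0.30, adjusted p = 0.0770) or the choroid plexus mean (-0.23, adjusted p = 0.0535) as a covariate.

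Hepacam went the other way. It encodes GlialCAM, an adhesion protein that partners with Mlc1 at astrocyte junctions. Its values were 9.41, 9.68 and 9.47 in HD_p62KO mice and 9.53, 9.43 and 9.55 in HD_p62WT mice, against 9.20, 9.24 and 9.23 in NT_p62KO mice and 9.40, 9.47 and 9.27 in NT_p62WT mice. All 3 HD_p62KO mice lay above all 3 NT_p62KO mice, and the groups with normal p62 overlapped. Hepacam rose by 0.21 on average (SE 0.058, adjusted p = 0.0161) and by 0.30 without p62 (SE 0.082, adjusted p = 0.0262), where the call was lost on leaving out HD_p62KO mouse 2 or 3 or NT_p62KO mouse 1 or 3 (adjusted p up to 0.113). With the array spread as a covariate the average difference was 0.14 (adjusted p = 0.204) and that without p62 was 0.20 (adjusted p = 0.242), and neither passed. The call without p62 was also lost after a further quantile normalization, without the 3 arrays of smallest SD and with only the groups compared. Mlc1, its partner, differed by 0.02 ± 0.046 (SE) and did not pass. The connexins that join astrocytes into a network did not pass, with mean differences of -0.15 ± 0.078 for Gja1 (connexin 43) and 0.05 ± 0.075 for Gjb6 (connexin 30).

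Among the 8 genes of metabolism and thyroid hormone handling, 4 fell and 0 rose, where 15.0% of all genes fell and 19.9% rose. Dio2 (chr12:90724552-90739038) encodes type 2 deiodinase, by which astrocytes convert thyroxine to active triiodothyronine. Its values were 8.53, 8.38 and 8.34 in HD_p62KO mice and 8.55, 8.39 and 8.62 in HD_p62WT mice, against 8.99, 9.31 and 9.13 in NT_p62KO mice and 9.12, 8.97 and 9.14 in NT_p62WT mice. Every HD mouse lay below every non-transgenic mouse, and the gap between them was wider than the range within any group. Dio2 fell by 0.64 on average (SE 0.068, 95% interval -0.79 to -0.49, adjusted p = 9.08e-05), a 1.56-fold difference and the largest decrease among the members. It fell by 0.73 without p62 (SE 0.097, adjusted p = 0.00108) and by 0.56 with p62 (SE 0.097, adjusted p = 0.00773). Crym encodes μ-crystallin, a cytosolic protein that binds triiodothyronine and is also made by striatal neurons. Its values were 8.78, 8.61 and 8.91 in HD_p62KO mice and 8.57, 8.68 and 8.84 in HD_p62WT mice, against 9.04, 8.85 and 8.97 in NT_p62KO mice and 9.29, 9.08 and 8.99 in NT_p62WT mice. The groups with normal p62 were separate and the knockout groups overlapped. Crym fell by 0.30 on average (SE 0.074, adjusted p = 0.00893). The difference was -0.18 without p62 (adjusted p = 0.212), and with p62 Crym fell by 0.43 (SE 0.105, adjusted p = 0.0329), a call lost on leaving out HD_p62WT mouse 1 or 2 or any NT_p62WT mouse (adjusted p up to 0.129). With p62 the call was also lost with the array spread (-0.40, adjusted p = 0.0610) or the choroid plexus mean (-0.37, adjusted p = 0.0688) as a covariate, and the average was lost with the array spread (-0.27, adjusted p = 0.10). All 10 measured projection neuron markers fell in the same comparison (median -0.62), and their part in the Crym value was not tested. Slco1c1, the transporter that brings thyroxine into the brain, differed by -0.11 ± 0.073 (SE).

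Ppp1r3c encodes a subunit that targets protein phosphatase 1 to glycogen. Its values were 8.03, 8.37 and 8.28 in HD_p62KO mice and 8.12, 8.18 and 8.23 in HD_p62WT mice, against 8.39, 8.57 and 8.49 in NT_p62KO mice and 8.47, 8.46 and 8.56 in NT_p62WT mice. No HD value reached the lowest non-transgenic value, and HD_p62KO mouse 1 was the lowest of all. Ppp1r3c fell by 0.29 on average (SE 0.063, adjusted p = 0.00492). The difference was -0.26 without p62 (adjusted p = 0.0554), and with p62 Ppp1r3c fell by 0.32 (SE 0.089, adjusted p = 0.0483). The call with p62 was lost on leaving out any mouse with normal p62, HD_p62KO mouse 3 or NT_p62KO mouse 1 (adjusted p up to 0.161). Cbs encodes cystathionine β-synthase, an enzyme of sulfur amino acid metabolism. Its values were 8.67, 8.81 and 8.89 in HD_p62KO mice and 8.77, 8.67 and 8.86 in HD_p62WT mice, against 8.91, 9.00 and 8.95 in NT_p62KO mice and 8.89, 8.89 and 8.93 in NT_p62WT mice. The ranges met at 8.89, where HD_p62KO mouse 3 stood level with the lowest non-transgenic mice. Cbs fell by 0.15 (SE 0.052, adjusted p = 0.0408), and this was lost on leaving out any mouse but HD_p62KO mouse 3 and HD_p62WT mouse 3 (adjusted p up to 0.0838). Aldh1l1, a folate enzyme used as a general astrocyte marker, differed by -0.12 ± 0.058 (SE, adjusted p = 0.118). Aldoc, the brain aldolase, differed by -0.09 ± 0.047 and Acsbg1, an acyl-CoA synthetase, by 0.11 ± 0.070. None of these 3 passed.

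**Figure D2:**
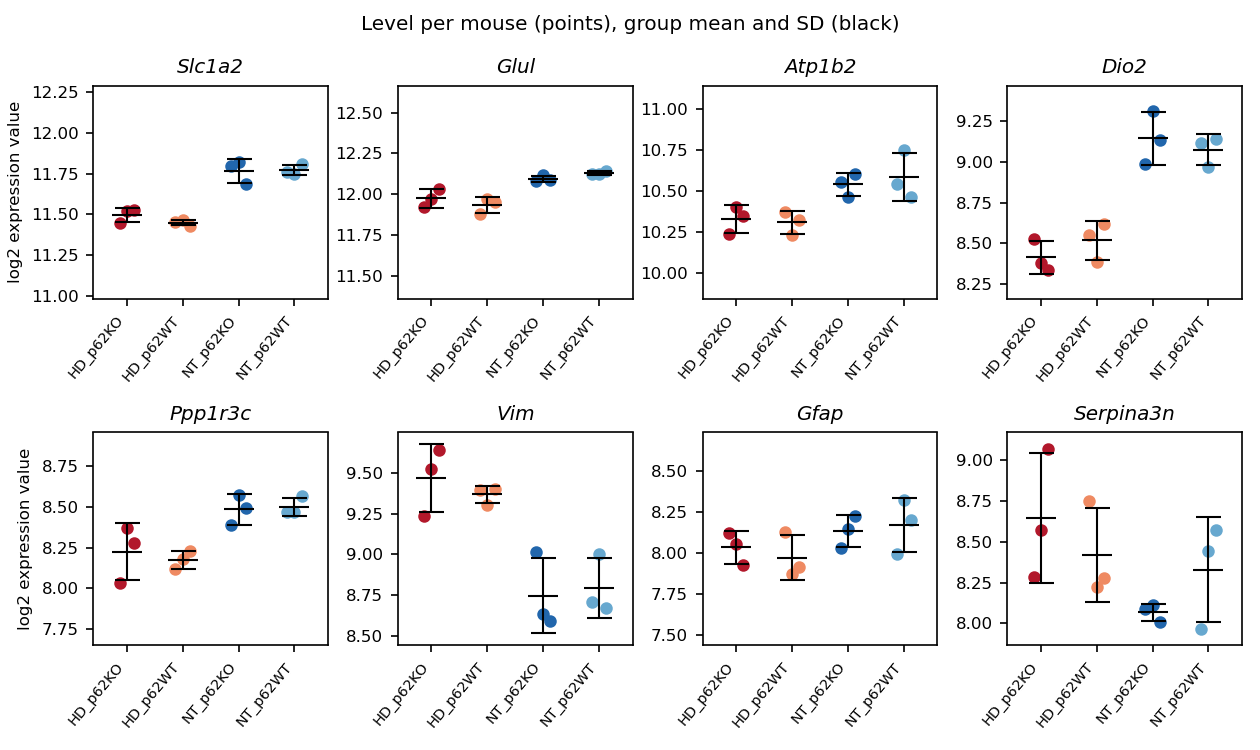
Log2 expression value (y axis) of 8 genes in each mouse (points), with the group mean and SD in black, for HD_p62KO, HD_p62WT, NT_p62KO and NT_p62WT mice (x axis, 3 each). Slc1a2, Glul, Atp1b2, Dio2 and Ppp1r3c lie lower and Vim higher in all 6 HD mice, whereas Gfap and Serpina3n overlap.

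Of the 10 receptors and other identity markers, 3 fell and 1 rose, where 15.0% of all genes fell and 19.9% rose. Their median was 0.06. Fgfr3, a fibroblast growth factor receptor, had values of 9.46, 9.57 and 9.50 in HD_p62KO mice and 9.47, 9.39 and 9.65 in HD_p62WT mice, against 9.64, 9.85 and 9.89 in NT_p62KO mice and 9.80, 9.85 and 9.70 in NT_p62WT mice. HD_p62WT mouse 3 lay just above NT_p62KO mouse 1, and the other HD mice lay below all non-transgenic mice. Fgfr3 fell by 0.28 (SE 0.063, adjusted p = 0.00576), with the same size in each p62 genotype, of which only that without p62 passed (adjusted p = 0.0406, against 0.0749 with p62). That call was lost on leaving out any HD_p62KO mouse, HD_p62WT mouse 1, NT_p62KO mouse 2 or 3 or NT_p62WT mouse 1 (adjusted p up to 0.138), and with the array spread (-0.31, adjusted p = 0.140) or the choroid plexus mean (-0.28, adjusted p = 0.0507) as a covariate. Ntsr2, a neurotensin receptor, had values of 9.44, 9.50 and 9.30 in HD_p62KO mice and 9.59, 9.99 and 9.55 in HD_p62WT mice, against 9.82, 9.76 and 9.75 in NT_p62KO mice and 9.79, 10.04 and 9.80 in NT_p62WT mice. The 3 HD_p62KO mice were the lowest of all 12, and HD_p62WT mouse 2 lay near the top. Ntsr2 fell by 0.27 on average (SE 0.080, adjusted p = 0.0230) and by 0.37 without p62 (SE 0.113, adjusted p = 0.0381), and the average did not pass with the array spread as a covariate (-0.20, adjusted p = 0.244) or without HD_p62KO mouse 3, HD_p62WT mouse 1 or 3 or NT_p62WT mouse 2 (adjusted p up to 0.0597). The call without p62 was lost on leaving out any of the 6 knockout mice (adjusted p up to 0.128) and with the array spread as a covariate (-0.28, adjusted p = 0.303).

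Gpr37l1, an orphan receptor of astrocytes, had values of 10.68, 10.90 and 10.84 in HD_p62KO mice and 10.84, 10.77 and 10.85 in HD_p62WT mice, against 10.94, 10.95 and 10.95 in NT_p62KO mice and 10.96, 11.09 and 10.89 in NT_p62WT mice. The ranges overlapped at HD_p62KO mouse 2, and HD_p62KO mouse 1 was the lowest. Gpr37l1 fell by 0.15 (SE 0.053, adjusted p = 0.0461), a call lost on leaving out any mouse but HD_p62KO mouse 2 and NT_p62WT mouse 3 (adjusted p up to 0.101). S100b, a calcium-binding protein of astrocytes that some oligodendrocytes also make, had values of 9.57, 9.56 and 9.43 in HD_p62KO mice and 9.76, 9.50 and 9.79 in HD_p62WT mice, against 9.35, 9.28 and 9.37 in NT_p62KO mice and 9.25, 9.55 and 9.41 in NT_p62WT mice. HD mice were mostly above non-transgenic mice, with NT_p62WT mouse 2 inside the HD range. S100b rose by 0.24 (SE 0.067, adjusted p = 0.0178), and with the array spread as a covariate the difference of 0.20 did not pass (adjusted p = 0.170). The S100b call was also lost after a further quantile normalization. Of 11 measured markers of mature oligodendrocytes 5 fell and 0 rose, and of 8 genes listed as precursor markers 1, Enpp6, rose (0.46). Of all genes 35.0% passed, and the part of these cells in the S100b value was not tested. Fabp7, a fatty acid binding protein of glial progenitors and astrocytes, differed by 0.28 ± 0.11 (SE, adjusted p = 0.0616). The remaining receptors and markers, Bmpr1b, Mertk, Gpc5, F3 and Ndrg2, had mean differences between -0.03 and 0.19 and did not pass. Of the transcription regulators, Sox9, which specifies astrocytes, differed by -0.13 ± 0.068 and Id3 by -0.12 ± 0.076, and of the secreted proteins, Clu, Cst3 and Sparcl1 differed by -0.04, 0.00 and -0.07. None of these 5 passed.

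**Figure D3:**
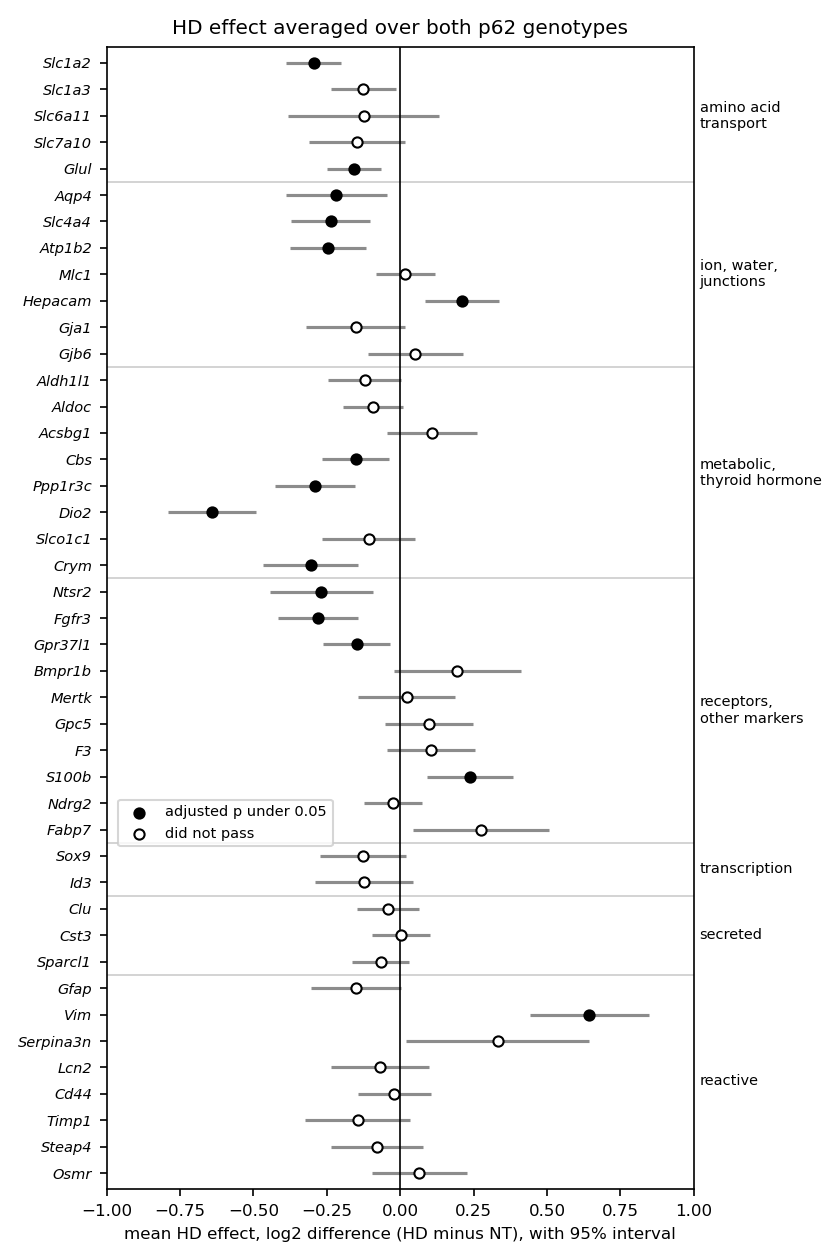
Mean HD effect over both p62 genotypes (x axis, log2 difference, HD minus NT) with its 95% interval for each of the 43 genes (y axis, by role). Filled points passed at an adjusted p under 0.05, and most filled points of the transport and metabolic genes lie left of 0, with Dio2 at -0.64 and Vim alone far to the right at 0.64.

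Of the 8 reactive members, Vim rose and the other 7 did not pass, and the median of the list was -0.04. Vim (chr2:13574311-13582826) encodes vimentin, an intermediate filament protein of reactive astrocytes that endothelial, ependymal and progenitor cells also make. Its values were 9.23, 9.52 and 9.64 in HD_p62KO mice and 9.40, 9.30 and 9.40 in HD_p62WT mice, against 9.01, 8.63 and 8.60 in NT_p62KO mice and 8.71, 9.01 and 8.67 in NT_p62WT mice. The lowest HD value, 9.23, lay above the highest non-transgenic value, 9.01. Vim rose by 0.64 on average (SE 0.093, 95% interval 0.44 to 0.85, adjusted p = 0.000634), a 1.56-fold difference and the largest increase among the members. It rose by 0.72 without p62 (SE 0.13, adjusted p = 0.00537) and by 0.57 with p62 (SE 0.13, adjusted p = 0.0268). Without p62, adding the array spread to the model ended the call (0.52, adjusted p = 0.0727). With p62, the call was lost when the choroid plexus mean entered as covariate (0.53, adjusted p = 0.0613) and on leaving out HD_p62WT mouse 1 or 3 or NT_p62WT mouse 1 or 3 (adjusted p up to 0.0995). Of the 11 endothelial and mural markers 2 fell and 0 rose, of the 8 ependymal markers 0 passed (1 at an unadjusted p under 0.05), and of the 8 choroid plexus markers Clic6 rose. Among all genes, 35.0% passed in the mean HD effect (limma), and 46.9% had an unadjusted p under 0.05.

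Gfap encodes the intermediate filament protein by which reactive astrocytes are most often recognised. Its values were 8.12, 8.06 and 7.93 in HD_p62KO mice and 8.13, 7.88 and 7.92 in HD_p62WT mice, against 8.03, 8.15 and 8.23 in NT_p62KO mice and 8.00, 8.32 and 8.20 in NT_p62WT mice. HD and non-transgenic mice overlapped, and the highest value belonged to NT_p62WT mouse 2. The mean difference was -0.15 ± 0.071 (SE, 95% interval -0.30 to 0.00, adjusted p = 0.115), at -0.10 ± 0.10 without p62 and -0.20 ± 0.10 with p62. It did not pass under any of the 22 alternatives for the mean effect (adjusted p 0.0526 to 0.362). Serpina3n, a secreted protease inhibitor induced in reactive astrocytes and made by other cells too, belongs to a family of close gene copies. Its values were 8.29, 8.57 and 9.07 in HD_p62KO mice and 8.75, 8.23 and 8.28 in HD_p62WT mice, against 8.09, 8.11 and 8.01 in NT_p62KO mice and 7.97, 8.44 and 8.57 in NT_p62WT mice. The 3 HD_p62KO mice lay above the 3 NT_p62KO mice, HD_p62KO mouse 3 was the highest of all at 9.07, and the groups with normal p62 overlapped. The mean HD difference was 0.33 ± 0.14 (SE, adjusted p = 0.0880), which passed under 2 of 22 alternatives (adjusted p 0.0225 to 0.689). The difference without p62 was 0.57 ± 0.20 (SE, adjusted p = 0.0595), which passed under 5 of 23 (adjusted p 0.0147 to 0.521). With p62 it was 0.09 ± 0.20 (adjusted p = 0.815), and the test of the difference between genotypes gave 0.49 ± 0.29 (SE, 95% interval -0.14 to 1.11, adjusted p = 0.991). Lcn2 (lipocalin 2), the adhesion receptor Cd44, the protease inhibitor Timp1, the metalloreductase Steap4 and the oncostatin M receptor Osmr had mean differences of -0.07, -0.02, -0.14, -0.08 and 0.06 and did not pass.

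Setting the transport and metabolic genes beside the reactive genes, the mean deviation of the 20 transport and metabolic genes from their 12-mouse means was -0.16 to 0.01 in HD mice and 0.04 to 0.18 in non-transgenic mice. Those ranges did not overlap, HD_p62KO mouse 1 was the lowest and NT_p62WT mouse 2 the highest. For the 8 reactive genes the deviation was -0.09 to 0.13 in HD mice and -0.09 to 0.02 in non-transgenic mice, and the ranges overlapped. NT_p62WT mouse 2 was also the highest over all 43 genes, at 0.12. These are descriptions of the lists, with no test.

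A separate question was whether the HD effect on these genes was similar in each p62 genotype, which can be asked because the 2 effects use different mice. The sign was the same for 34 of 43 members (79.1%), against 80.8% of all genes. Across the 43 genes the 2 effects correlated at r = 0.86 (Spearman 0.80), and across all genes at 0.76 (Spearman 0.76), where the genes share the same 12 arrays and their normalization. Slc1a2, Dio2 and Vim passed in both, 3 of the 43 members, where 1107 of all 19248 genes did. The test of the difference of HD effects called none of the 43 members and 0% of all genes (limma; at an unadjusted p under 0.05, 0 of 43 members and 3.45% of all genes). The estimated differences between the genotypes ran from -0.20 for Ntsr2 to 0.49 for Serpina3n, with standard errors of 0.084 to 0.29. For Slc1a2 the difference was 0.05 (95% interval -0.13 to 0.24), for Dio2 -0.17 (-0.47 to 0.12) and for Vim 0.15 (-0.26 to 0.55), and differences inside these intervals could not be resolved.

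**Figure D4:**
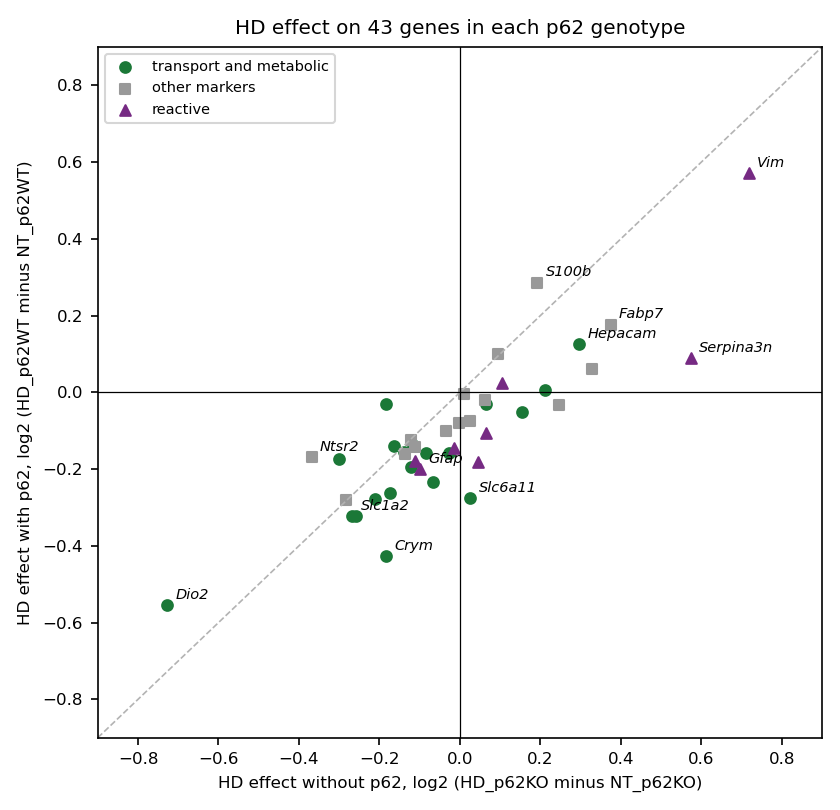
HD effect without p62 (x axis, log2, HD_p62KO minus NT_p62KO) against the HD effect with p62 (y axis, log2, HD_p62WT minus NT_p62WT) for the 43 genes, by role, with the line of equal effects dashed. Dio2 (-0.73 and -0.56) and Vim (0.72 and 0.57) lie near the line at opposite ends, and Serpina3n (0.57 and 0.09) lies furthest from it.

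The p62 knockout itself was compared within each HD status. None of the 43 members passed in HD mice, where 0.00520% of all genes passed, nor in non-transgenic mice, where 0.00520% did, nor in their average, where 0.0104% did (limma). At an unadjusted p under 0.05 the members were 2 in HD mice (Ntsr2 and Cd44), 0 in non-transgenic mice and 1 in the average (Ntsr2), where 2.88%, 3.32% and 2.69% of all genes did so. Ntsr2 differed by -0.29 in HD_p62KO against HD_p62WT mice (95% interval -0.54 to -0.05, adjusted p = 1.00), and Cd44 by 0.18 (0.00 to 0.36). The median difference over the members was 0.04 in HD and -0.05 in non-transgenic mice. For the average over both, every member's 95% interval lay between -0.37 and 0.33, and average p62 effects beyond these bounds lay outside the interval of every member.

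Other genes of the same cells, from separate lists also chosen with earlier results of these data known, were counted in the same fit. Of 56 measured further astrocyte-enriched genes, 14 fell and 0 rose in the mean HD effect, with a median of -0.07. That was 25% of the list, against 35.0% of all genes (15.0% lower and 19.9% higher). Grin2c, an NMDA receptor subunit of astrocytes, fell by 0.43 (SE 0.042, adjusted p = 4.13e-05). Lcat, which esterifies cholesterol in lipoproteins, fell by 0.43 (SE 0.049), Slc9a3r1, a scaffold of membrane transporters, fell by 0.36 (SE 0.056), and Id4, a repressor of differentiation factors, fell by 0.31 (SE 0.056). Apoe, the main brain apolipoprotein, fell by 0.15 (SE 0.049, adjusted p = 0.0329). Without p62 4 fell and 1, the glutamate dehydrogenase gene Glud1, rose (0.29), where 8.93% passed against 21.7% of all genes. With p62 6 fell and 0 rose, 10.7% against 7.10% of all genes. Kcnj10, which encodes the potassium channel Kir4.1 by which astrocytes buffer potassium, ran from 9.67 to 10.21 in the 6 HD mice (median 9.83) and from 9.86 to 10.30 in the 6 non-transgenic mice (median 10.11). The ranges overlapped, and the mean difference of -0.24 did not pass (SE 0.099, adjusted p = 0.0756), though it did under 5 of the 22 alternatives (adjusted p down to 0.0282).

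Of 28 measured further genes of reactive astrocytes, 3 rose and 4 fell, with a median of -0.06. That was 25% of the list, against 35.0% of all genes in the mean HD effect. Fkbp5, a stress-induced chaperone partner, rose by 0.36 (SE 0.088), Iigp1, an interferon-induced GTPase, rose by 0.34 (SE 0.084), and Cp, ceruloplasmin, rose by 0.31 (SE 0.079). Chil1 fell by 0.52 (SE 0.076, adjusted p = 0.000655) and Fbln5, an extracellular matrix protein, fell by 0.43 (SE 0.055, adjusted p = 0.000293). Cytokine receptor and STAT3 signalling drives much of astrocyte reactivity. Of 16 measured genes of this signalling, 4 rose and 3 fell (43.8% called, against 35.0% of all genes). The receptor subunits Lifr and Il6st (gp130) rose by 0.40 (SE 0.061) and 0.36 (SE 0.066), while Socs2, a feedback inhibitor of cytokine receptors, fell by 0.46 (SE 0.066) and Il6 by 0.31 (SE 0.091). Il6 ran from 3.33 to 4.16 over all mice, and Iigp1 from 3.95 to 4.69. Both lay far below the 25th percentile of gene means (6.73), and whether either was detected was not tested. Stat3 rose by 0.14 (SE 0.052), just past the threshold (adjusted p = 0.0498).

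**Figure D5:**
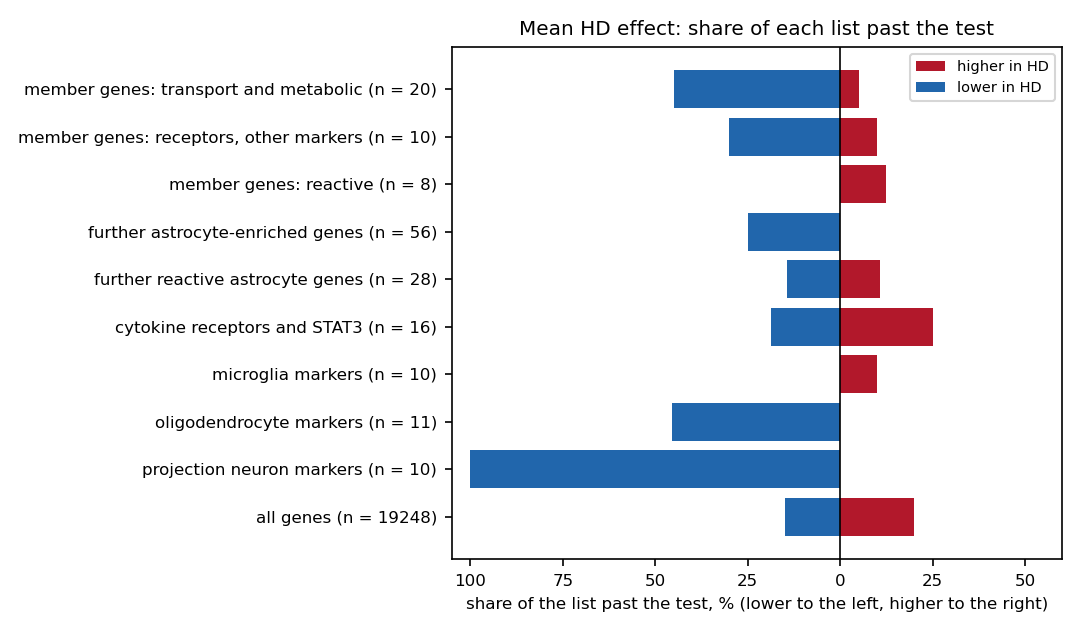
Share of each gene list past the test in the mean HD effect (x axis, percent of measured genes, lower in HD to the left in blue and higher to the right in red), with the number measured beside each name. Transport and metabolic members (9 lower, 1 higher of 20) lean to the left, all 10 projection neuron markers are lower, and the bar of all genes gives the background of 15.0% lower and 19.9% higher.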

How the data were processed

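The authors deposited log2 values, 1 per probe set and array, which RMA produced according to the submitters' processing notes. Per the labels, 100 ng of RNA per sample went onto Affymetrix whole-transcript arrays. For RMA, version and settings: not given in the sources used here. No file holds reads or counts. No column of per-sample values was left unused (0).

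Of 24055 probe sets, 19942 had 1 gene symbol, 1225 several and 2888 none. In the RefSeq gene table (GRCm38.p6), 19886 Entrez IDs were found and 0 symbols needed an update. The brightest probe set (mean over all 12 mice) stood for each of 470 genes with several, leaving 19248 genes. Of the 43 members, 42 had 1 probe set and Glul had 2. Gene positions come from GRCm38.p6. Promoter windows come from RefSeq.

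Groups and replicate numbers came from the titles. limma 3.58.1 in R 4.3.3 fitted a mean per group over all 12 arrays (8 residual and 4.14 prior degrees of freedom). Benjamini-Hochberg adjustment covered all genes of each contrast, calls were made at 0.05, and intervals are 95%. The fits were tested on simulated data. The members and lists were chosen with earlier results of these data known, so no test was made over a list. All 43 members could be named. Values in all 12 mice are given for members past the threshold and for Gfap, Vim, Slc1a3, Glul and Aqp4. Of other lists, up to 4 members with the smallest p per HD contrast are named, with Kcnj10 and Sqstm1 whatever their result. Apoe, Cp and Stat3, and Serpina3n for values in all mice, were chosen after their values were seen.

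Alternatives were a block for replicate number, a further quantile normalization, equal array medians, a filter at the 25th percentile of brightness, probe set averages, a trended robust variance, array weights, a fit of the compared groups alone, array SD or choroid plexus mean (8 markers) as a covariate, leaving out the 3 arrays of smallest SD, and leaving out each of the 12 mice.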

Additional observations from a re-analysis of the deposited data

How the results depend on the processing

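No member called in a comparison changed direction. The 27 results on single members were recomputed 606 times, of which 488 kept the direction and the call and 118 lost the call. The number of members called for the mean HD effect (15) was 11 to 19 over the alternatives and 12 to 14 on leaving out each mouse. Slc1a2, Dio2, Vim, Ppp1r3c, Slc4a4 and Fgfr3 held this call in all 22 alternatives. Of the rest, Atp1b2 lost it only without the 3 arrays of smallest SD (adjusted p = 0.0502) and Crym there (0.0580) and with the array SD as a covariate (0.10). Dio2 with p62 lost its call only without those arrays (0.0556). Without p62 the count of 7 became 2 with the array SD as a covariate, where 4.38% of all genes passed, 3 with only the groups compared, and 3 to 8 on leaving out each mouse (3 without HD_p62KO mouse 3 or NT_p62KO mouse 3, and 4 without HD_p62KO mouse 2 or NT_p62KO mouse 1 or 2). With normal p62 the count of 5 became 8 with array weights, 3 when the choroid plexus mean entered as covariate, 1 after dropping the 3 arrays of smallest SD (HD_p62WT mouse 2, NT_p62KO mouse 3 and NT_p62WT mouse 1), and 1 to 5 on leaving out each mouse (1 without NT_p62WT mouse 3, 2 without HD_p62WT mouse 1 or 3 or NT_p62WT mouse 1, and 3 without NT_p62WT mouse 2). The p62 contrasts and the difference of HD effects called 0 members in every alternative. The causes were not tested.

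The titles do not say whether the replicate numbers pair the mice, and correlations of deviations from group means cannot settle it. Same-numbered mice of different groups correlated at -0.34 to 0.21, over 0.1 in 4 of 18 pairs, and differently numbered mice at -0.33 to 0.43, over 0.1 in 10 of 36. With the replicate number as a block, the members called numbered 6 without p62, 2 with normal p62 and 12 for the mean HD effect.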

Other observations

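Of 11 measured thyroid hormone pathway genes outside the members, 4 fell and 0 rose in the mean HD effect, where 35.0% of all genes passed. The median log2 difference was -0.14, against -0.02 over all genes. Rasd2 (Rhes), a small GTPase of striatal neurons that responds to thyroid hormone, fell by 0.72, Nrgn (neurogranin) by 0.57, the retinoid receptor Rxrg by 0.57 and the corepressor Hr by 0.24. Rasd2, Nrgn and Rxrg are made mainly by neurons, and all 10 projection neuron markers fell in the same comparison. The part of neurons in these values was not tested. The mean deviation of the 11 genes was -0.15 to -0.08 in HD mice and 0.08 to 0.14 in non-transgenic mice. That mean includes the 4 called genes. The other 7 did not pass, and 3 of the 11 had a mean HD difference above 0.

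Further genes of glutamate and glutamine handling had a median of 0.12. Of 15 measured, 4 rose and 1 fell in the mean HD effect, 33.3% called against 35.0% of all genes. Asns, which makes asparagine from glutamine, rose by 0.30 and Got1, a cytosolic aminotransferase, by 0.21, while Slc38a5, a glutamine transporter, fell by 0.33.

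Of 10 microglia markers, 1 rose in the mean HD effect, the lysosomal protease gene Ctss (0.33), and 0 fell. That was 10% of the list, against 35.0% of all genes. Of 8 genes listed as markers of oligodendrocyte precursors, Enpp6 rose (0.46) and 0 fell, 12.5% called against 35.0% of all genes. The other 7, Pdgfra and Cspg4 among them, did not pass.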
